A study of Rattus norvegicus with 6 samples.

Results

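Immediate early genes and the feedback inhibitors that follow them were examined as a set of 32 genes in RBL-2H3 cells, a rat basophilic leukemia line labelled WT. The members were listed by name as AP-1, EGR and NR4A transcription factors, IER genes, MAP kinase phosphatases, Sprouty and Spred inhibitors and mRNA decay factors. All 32 were found by symbol among the 22601 genes of the deposited table, each once. Of these 32, 19 averaged 0.5 FPKM or more and were tested among 10410 genes, and 13 lay below that limit. FPKM gives the fragments of a gene scaled to its length and to the depth of the library, so levels of different genes can be set side by side. The series compared 3 control libraries, of cells that received no PIO, with 3 libraries of cells that received 10 µM of it for 6 h. The study's protocol gives 1 time for both conditions, whereas the titles name a time for the PIO libraries only. The series title speaks of a PPARγ agonist, and PIO is the sole agent named in the labels. All cells were the same line, grown in medium with serum, and the labels record no stimulus through the IgE receptor. No vehicle is recorded for the control libraries, so an effect of the solvent and one of PIO cannot be told apart. The labels do not say whether replicates were separate cultures, so the p-values cover only the spread between these libraries.

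Immediate early genes are switched on within minutes of a growth factor, stress or receptor signal without new protein synthesis, largely through MAP kinases that act on serum response factor, its ETS partners and CREB. Their mRNAs are short-lived, and many of their products are transcription factors, such as the Fos and Jun proteins that pair to form AP-1. Dual-specificity phosphatases, Sprouty and Spred proteins are made in the same response and shut the MAP kinase pathway down again. In mast cells and basophils, crosslinking of the IgE receptor is a classic trigger of this programme.

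Promoters are shown for the members that carry the palindromic cAMP response element, the 8 letters TGACGTCA that CREB and ATF factors bind. All 5 members in which it was found are shown. This element was picked for display because the resting levels of its carriers differ widely. Their control means ran from 0.0719 FPKM for Btg2 to 81.6 FPKM for Jund. RefSeq promoters of the rat build GRCr8 matched 23 of the 32 members, and the 250 bases before each start were searched on both strands. The members without an entry were Fos, Jun, Egr3, Nr4a3, Atf3, Ier3, Dusp4, Myc and Csrnp1. The element was found in 5 of these 23 members (21.7%) and in 1.59% of the 33469 promoters of the same length. Each sequence runs 5′ to 3′ towards the start of the gene, and capitals mark the element.
Jund (chr16:18769772-18770021, minus strand): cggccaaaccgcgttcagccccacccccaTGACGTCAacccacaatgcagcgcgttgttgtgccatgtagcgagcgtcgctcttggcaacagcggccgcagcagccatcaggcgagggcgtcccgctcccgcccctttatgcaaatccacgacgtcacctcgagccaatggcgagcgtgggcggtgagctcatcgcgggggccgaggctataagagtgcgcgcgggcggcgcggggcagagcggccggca
Ier2 (chr19:40399123-40399372, plus strand): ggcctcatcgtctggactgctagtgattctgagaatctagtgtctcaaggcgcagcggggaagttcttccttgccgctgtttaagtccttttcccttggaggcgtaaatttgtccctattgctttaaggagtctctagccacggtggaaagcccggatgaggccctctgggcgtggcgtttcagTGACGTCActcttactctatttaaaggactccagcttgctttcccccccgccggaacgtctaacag
Dusp1 (chr10:17184603-17184852, plus strand): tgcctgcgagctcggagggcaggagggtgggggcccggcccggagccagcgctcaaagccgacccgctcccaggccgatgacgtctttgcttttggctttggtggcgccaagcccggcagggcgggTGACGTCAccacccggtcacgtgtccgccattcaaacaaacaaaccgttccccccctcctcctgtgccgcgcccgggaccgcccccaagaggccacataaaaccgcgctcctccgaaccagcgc
Maff (chr7:112792537-112792786, plus strand): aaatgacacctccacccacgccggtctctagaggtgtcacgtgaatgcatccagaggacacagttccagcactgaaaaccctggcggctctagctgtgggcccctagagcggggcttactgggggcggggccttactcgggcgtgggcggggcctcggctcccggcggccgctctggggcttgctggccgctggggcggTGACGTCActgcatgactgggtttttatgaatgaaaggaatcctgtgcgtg
Btg2 (chr13:48087691-48087940, minus strand): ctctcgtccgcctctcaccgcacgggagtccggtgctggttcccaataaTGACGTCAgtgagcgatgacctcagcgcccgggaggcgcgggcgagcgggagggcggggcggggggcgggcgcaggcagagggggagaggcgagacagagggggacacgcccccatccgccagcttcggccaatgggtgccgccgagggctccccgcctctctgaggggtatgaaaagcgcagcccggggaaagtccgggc
The element's nearest base lay 214 bases before the start in Jund, 59 in Ier2, 117 in Dusp1, 44 in Maff and 194 in Btg2. The control means of these genes were 81.6 FPKM for Jund, 14.0 FPKM for Ier2, 4.18 FPKM for Dusp1, 0.329 FPKM for Maff and 0.0719 FPKM for Btg2. The same letters thus occurred beside both abundant and scarce mRNAs, a spread for which the element was picked and not a result. The CArG box, the letters bound by serum response factor, was found in Egr1, Egr2, Dusp5 and Zfp36 (17.4% of the matched members, against 1.5% of all promoters). These 4 genes had control means between 0.0123 FPKM for Egr2 and 2.09 FPKM for Zfp36. The EGR site GCGGGGGCG was found in Fosl2, Nr4a1, Dusp2 and Zfp36 (17.4%, against 2.45%). The AP-1 site TGACTCA (4.05% of all promoters), the CEBP-ATF composite TGATGNAA (3.4%) and the PPAR half-site repeat AGGTCANAGGTCA (0.0508%) matched no member in this window. The TATA box letters TATAAA, searched over the whole window, matched Fosb, Junb, Ier5 and Zfp36l1 (17.4%, against 12.9%). Their nearest base lay 175 bases before the start in Fosb, 44 in Junb, 40 in Ier5 and 49 in Zfp36l1.

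The libraries held 14048202 to 15084729 reads behind the FPKM values, and the values resolved into whole reads for every gene above 0. Of the mast cell and basophil markers, Fcer1a, Ms4a2, Fcer1g, Kit, Cpa3, Hdc and Gata2 stood high, with means of 137 to 843 FPKM. Tpsab1, Mcpt1 and Mcpt8 were listed at 0 in all libraries, and only 14 of the 20 markers averaged 0.5 FPKM or more. The 20 marker genes of this cell type summed to 4960 to 5180 FPKM in control and 4980 to 5107 FPKM with PIO. The 10 macrophage markers summed to at most 2.09 FPKM, the 8 neutrophil markers to at most 1.41 FPKM and the 6 B cell markers to at most 0.653 FPKM in any library. Of the T and NK cell markers, Nkg7 alone stood high, at a mean of 336 FPKM, while Cd3d, Cd8a and Zap70 were listed at 0. The 10 fibroblast and adipocyte markers summed to at most 5.61 FPKM. Control replicate 3 stood apart from the other 5 libraries in stress genes. Many of the results that rest on it, though not all, are set beside their values without it.

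At rest the members were spread over a wide range of levels. Control means were at least 50 FPKM for 3 members, 5 to under 50 FPKM for 10, 0.5 to under 5 FPKM for 6 and under 0.5 FPKM for 13. Over all genes above 0 in at least 1 library, 11.6% reached 50 FPKM and 32.6% lay under 0.5 FPKM, against 9.38% and 40.6% of the members, so these shares lay near the background. The most abundant member was Dusp4, which encodes a nuclear phosphatase of ERK and other MAP kinases. It stood at 101, 109 and 103 FPKM in control replicates 1 to 3, above 94.7% of all genes above 0. The 13 scarce members were Fos, Fosb, Fosl1, all 3 Egr and all 3 Nr4a genes, Spry1, Spry2, Btg2 and Maff. Levels also rest on the gene length used by the authors, which ran from 976 bases for Fosl2 to 7950 bases for Spred1.

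**Figure D1:**
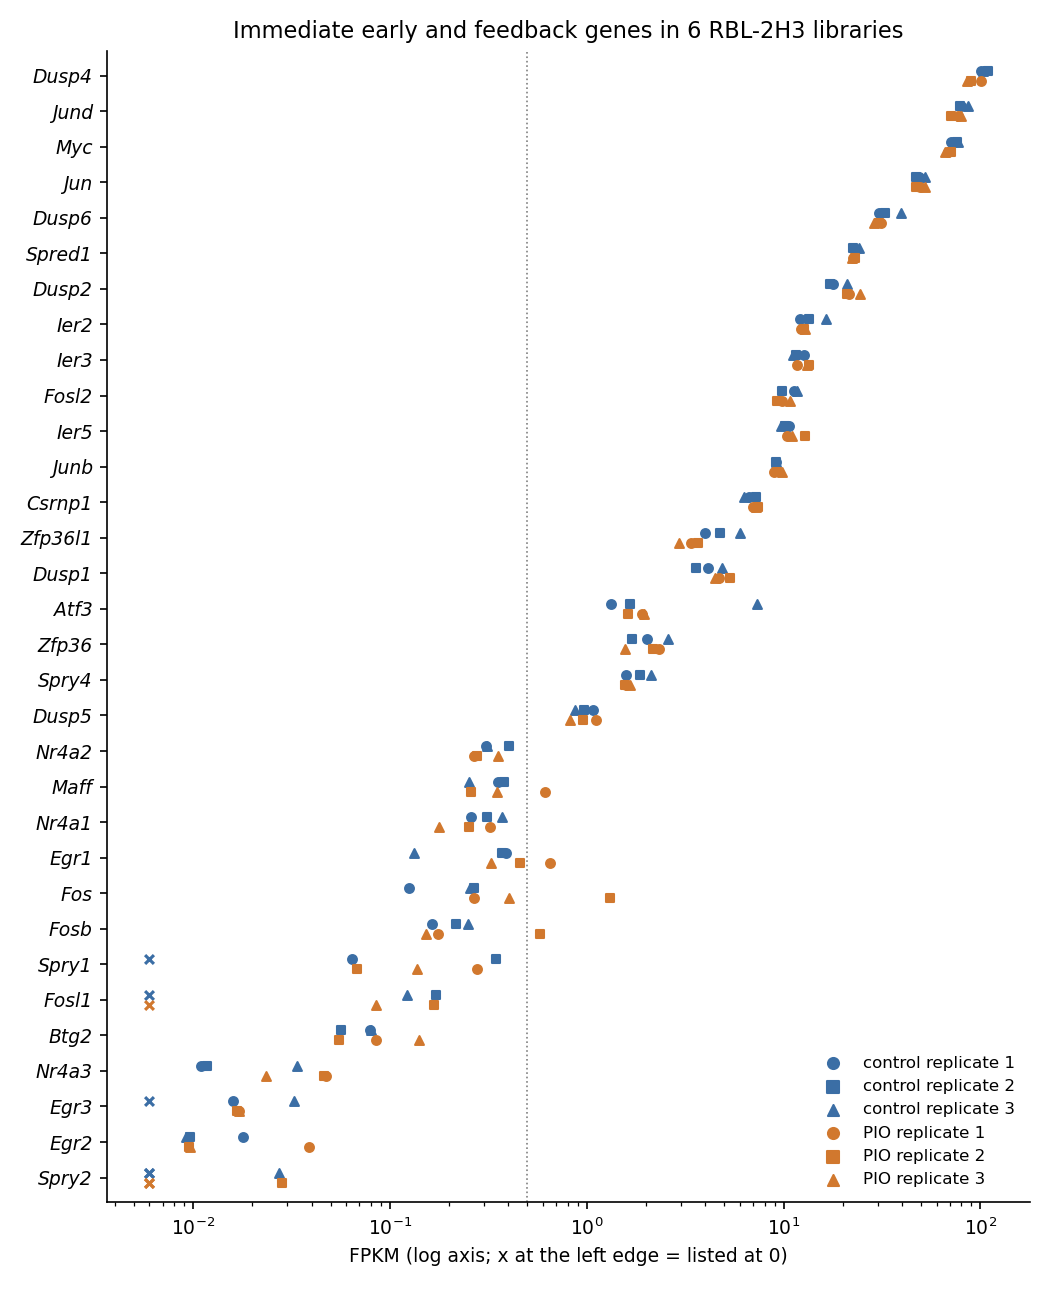
FPKM (log axis) of the 32 members in each library, ordered by the control mean; blue marks control, orange PIO, crosses at the left edge values listed at 0, and the dotted line the limit of 0.5 FPKM. Dusp4, Jund, Myc and Jun lie near 50 to 109 FPKM while 13 members lie below the dotted line in the control mean.

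Within AP-1, the Jun side was carried by Jund and Jun and the Fos side by Fosl2. Jund, the Jun family member known for steady expression in resting cells, stood at 79.7, 78.7 and 86.5 FPKM in control and 76.5, 71.1 and 80.1 FPKM with PIO. Jun, the strongest transcriptional activator of the family, stood at 48.9, 46.8 and 52.1 FPKM in control and 49.2, 47.2 and 52.0 FPKM with PIO. The 2 groups overlapped in both genes. Junb, which can oppose Jun, was the scarcest of the 3, with 9.14, 9.13 and 9.10 FPKM in control and 8.93, 9.23 and 9.86 FPKM with PIO. In control the family sum of 140 ± 6.78 FPKM (SD, n = 3) was made up of 58.3% ± 0.374 Jund, 35.2% ± 0.368 Jun and 6.53% ± 0.325 Junb.

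Fosl2, which encodes Fra-2, stood at 11.3, 9.81 and 11.7 FPKM in control and 9.85, 9.23 and 10.8 FPKM with PIO. It made up 97.5%, 93.7% and 94.9% of the Fos family sum in control and 95.7%, 81.7% and 94.4% with PIO, lowest in PIO replicate 2, where Fos made up 11.7% and Fosb 5.13%. Fosl2 was thus the main Fos family mRNA in every library. Fosl1, which encodes Fra-1, had 0, 4 and 3 recovered reads in control and 0, 4 and 2 with PIO. The Jun family sum was 11.9, 12.9 and 12.0 times the Fos family sum in control and 13.1, 11.3 and 12.4 times with PIO, so this ratio overlapped between the groups. The level of Fosl2 rests on the shortest gene length among the members, and the ratio depends on that length.

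**Figure D2:**
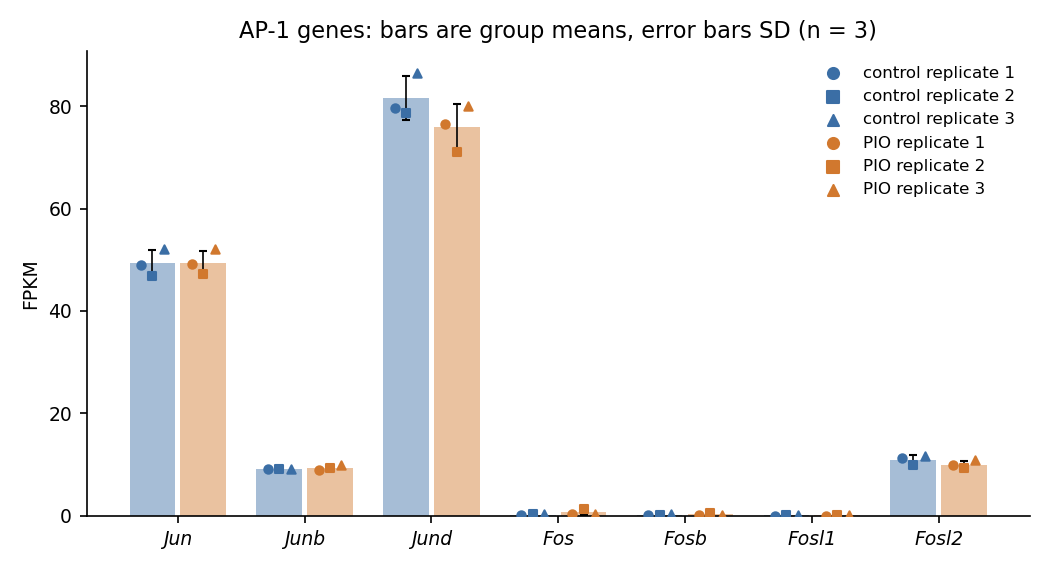
FPKM of the 7 AP-1 genes, with bars for group means, error bars for the SD (n = 3) and points for libraries. Jund, Jun, Fosl2 and Junb hold nearly all of the AP-1 signal, and Fos, Fosb and Fosl1 stay close to 0.

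The shares within the Jun family differed between the groups by small amounts. Jun took 34.8% to 35.5% of the family sum in control and 36.6% to 37.0% with PIO. Jund took 57.9% to 58.6% in control and 55.8% to 56.8% with PIO. Neither pair of ranges overlapped. The exact permutation test (two-sided) gave p = 0.1 for both of these shares and for that of Fos in its family, which is the smallest value that 3 against 3 libraries allow, and p = 0.233 after adjustment over the 7 AP-1 shares. Shares within a library do not depend on how the libraries were scaled. They show an unequal difference between Jun and Jund, not which of them moved. The log2 fold changes were 0.01 for Jun, -0.10 for Jund, 0.03 for Junb and -0.13 for Fosl2, with limma adjusted p of 0.974, 0.462, 0.836 and 0.537.

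Fos and Fosb, the classic inducible genes of the family, had so few reads that single libraries decided their means. Fos had 3, 6 and 6 recovered reads in control and 6, 30 and 9 with PIO, that is 0.125, 0.268 and 0.255 FPKM in control and 0.269, 1.32 and 0.402 FPKM with PIO. Fosb had 8, 10 and 12 reads in control and 8, 27 and 7 with PIO. PIO replicate 2 was therefore the highest library for both genes. In FPKM every PIO value of Fos lay above every control value, but PIO replicate 1 and control replicate 2 were separated only by 0.269 against 0.268 FPKM, with 6 reads in each. For Fos its exact Poisson 95% interval of 20.2 to 42.8 reads lay above the upper bounds of the other 5 libraries, the highest of which was 17.1. For Fosb its interval of 17.8 to 39.3 reads overlapped those of control replicates 2 and 3, which reached 18.4 and 21.0. Without molecular identifiers in the libraries, such intervals describe counting error alone. Without PIO replicate 2, Fos stood at 3 to 6 reads in control and 6 and 9 with PIO.

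Egr1, a zinc finger factor usually induced together with Fos, did not follow that pattern. It had 9, 8 and 3 reads in control and 14, 10 and 7 with PIO, with the highest count in PIO replicate 1. Among the tested members, PIO replicate 2 was above every other library in Csrnp1, Dusp1, Ier3 and Ier5 (21.1% of 19, against 17.1% of all genes tested).

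**Figure D3:**
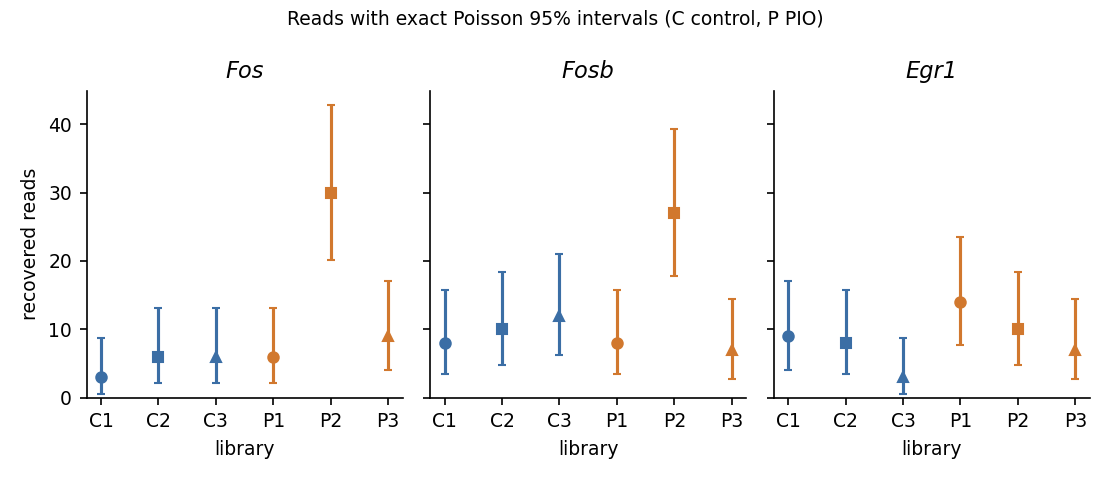
Recovered reads of Fos, Fosb and Egr1 in control (C1 to C3) and PIO (P1 to P3) libraries, with exact Poisson 95% intervals. PIO replicate 2 has 30 reads of Fos and 27 of Fosb, while for Egr1 it has 10 reads, within the range of the other libraries.

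The remaining scarce members lay under the limit of 0.5 FPKM and are given by their reads. Egr2 had 1 to 4 reads per library and Egr3 had 0 to 2, in gene models of 7357 and 4158 bases. The orphan receptor genes Nr4a1 and Nr4a2, acute response genes in many cell types, had 16 to 35 and 22 to 33 reads per library, and Nr4a3 had 1 to 4. Spry1 had 0 to 5 reads, Spry2 0 or 1, the antiproliferative gene Btg2 2 to 5 and the small Maf gene Maff 9 to 21. In each of these 9 genes the control and PIO values overlapped. For a gene with 0 reads in a library, the exact Poisson 95% interval of the expected count ran from 0 to 3.69 reads.

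The IER genes were expressed at moderate levels. Ier2 stood at 12.1, 13.4 and 16.4 FPKM in control and 12.3, 12.7 and 12.9 FPKM with PIO, so that control replicate 3 alone lay above the PIO values by more than 1 FPKM. Ier3, which encodes an ERK-binding survival protein, stood at 12.7, 11.6 and 11.2 FPKM in control and 11.7, 13.5 and 13.1 FPKM with PIO. The groups overlapped in both genes. Ier5 stood at 10.7, 10.2 and 9.7 FPKM in control and 10.4, 12.8 and 11.0 FPKM with PIO, and the nuclear factor gene Csrnp1 had means of 6.73 ± 0.489 and 7.19 ± 0.192 FPKM (SD, n = 3 per group). None of these genes passed the test, with limma adjusted p of 0.598 for Ier2, 0.565 for Ier3, 0.476 for Ier5 and 0.595 for Csrnp1. The log2 fold change of Ier2 was -0.13, and -0.01 without control replicate 3.

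Among the inhibitors of the MAP kinase pathway, Dusp4, Dusp6, Spred1 and Dusp2 were well expressed, whereas Dusp1, Spry4 and Dusp5 were low and Spry1 and Spry2 nearly unread. Dusp6, the cytoplasmic phosphatase specific for ERK, stood at 30.7, 32.6 and 39.6 FPKM in control and 31.3, 30.5 and 28.8 FPKM with PIO. The highest value was that of control replicate 3, and the groups overlapped. The log2 fold change of Dusp6 was -0.17 (limma adjusted p = 0.447), and -0.07 without control replicate 3 (limma adjusted p = 0.635). Dusp2, a nuclear phosphatase abundant in blood cells, stood at 17.8, 17.2 and 21.1 FPKM in control and 21.4, 20.9 and 24.4 FPKM with PIO. Dusp1, the most rapidly induced of these phosphatases, had means of 4.18 ± 0.640 and 4.84 ± 0.469 FPKM (SD, n = 3), and Dusp5 had means of 0.968 ± 0.101 and 0.964 ± 0.149 FPKM.

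Spred1, a membrane-anchored inhibitor of Raf activation, was the leading gene of its group at 22.9, 22.6 and 24.1 FPKM in control and 22.6, 23.1 and 22.2 FPKM with PIO. Spry4, a Sprouty inhibitor, had means of 1.85 ± 0.266 and 1.61 ± 0.0450 FPKM (SD, n = 3). Spry1 and Spry2 were nearly unread, so Spry4 was the only measurable Sprouty gene among the 3 listed.

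Myc, the growth regulator, was the third most abundant member. It stood at 71.2, 76.2 and 76.5 FPKM in control and 68.1, 70.7 and 66.0 FPKM with PIO. All 3 PIO values lay below all 3 control values, by a narrow margin of 70.7 against 71.2 FPKM. Zfp36, which encodes tristetraprolin, a protein that binds AU-rich elements and speeds mRNA decay, had means of 2.09 ± 0.453 and 2.02 ± 0.396 FPKM (SD, n = 3). Its relative Zfp36l1 stood at 3.97, 4.78 and 6.02 FPKM in control and 3.40, 3.67 and 2.93 FPKM with PIO, again without overlap.

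PIO gave no call among the members. None of the 19 tested members passed the test (limma on log2(FPKM + 0.5) with Benjamini-Hochberg adjustment at 0.05), as against 0.0384% of all genes tested, and the smallest adjusted p among them was 0.304. Limma-voom on the recovered reads also passed 0 members, with a smallest adjusted p of 0.234. At an unadjusted p under 0.05 there were 4 members, 1 higher and 3 lower. That is 21.1% of the 19, against 12.5% of all genes tested, of which 6.36% were higher and 6.15% lower. With only 4 genes this share is not a result about the set. In bulk RNA, a change in the number of cells of one state and a change in mRNA per cell cannot be told apart. Under TPM scaling the same split over all genes was 3.26% higher and 8.14% lower, and it was 1 and 4 among 25 members.

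The 4 members were Zfp36l1, Dusp4, Myc and Dusp2. Zfp36l1 averaged 4.92 ± 1.04 FPKM without and 3.33 ± 0.375 FPKM with PIO (SD, n = 3 per group), and its log2 fold change was -0.49 (SE 0.14, limma adjusted p = 0.304). Dusp4 had 101, 109 and 103 FPKM in control and 101, 89.5 and 85.9 FPKM with PIO, and its log2 fold change was -0.18 (SE 0.06, limma adjusted p = 0.34). Its PIO replicate 1 lay at the level of control replicate 1, and without PIO replicate 1 the log2 fold change was -0.25 (limma adjusted p = 0.141), the smallest adjusted p of any member under any alternative run.

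For Myc the log2 fold change was -0.13 (SE 0.04, limma adjusted p = 0.34). For Dusp2, the only one of the 4 that was higher, it was 0.25 (SE 0.09, limma adjusted p = 0.346), and the groups overlapped through control replicate 3 at 21.1 FPKM. Without control replicate 3 the log2 fold change of Dusp2 was 0.34 and that of Zfp36l1 was -0.35, with limma adjusted p of 0.303 and 0.371. Groups did not overlap in 3 of the 19 members, Zfp36l1, Dusp4 and Myc (15.8%, against 18.5% of all genes tested). All 3 had every PIO value below every control value, which held for 8.09% of all genes tested, whereas the opposite order was found in 0 members and in 10.5% of all genes tested.

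The log2 fold changes of the 19 members ran from -0.49 for Zfp36l1 to 0.25 for Dusp2, with 7 above 0 and 12 below, a median of -0.04 and a median of 0.01 over all genes tested. Over all genes tested 54.0% were above 0. Without control replicate 3 the split was 9 above and 10 below and the median was -0.01, with 2 higher and 3 lower members at an unadjusted p under 0.05, against 6.00% and 5.73% of all genes tested in that fit. Of the members in which control replicate 3 was highest, Fosl2 then moved to -0.08, Jund to -0.06, Spred1 to -0.0053 and Spry4 to -0.08, Jun to 0.05 and Zfp36 to 0.09. Dusp1, in which it was the highest control but not the highest library, moved from 0.19 to 0.29. Leaving out the highest control value raises such a change by arithmetic, so these upward moves are not a result. Under TPM scaling the sign of Jun turned to -0.02 and 10 of 25 members were above 0.

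**Figure D4:**
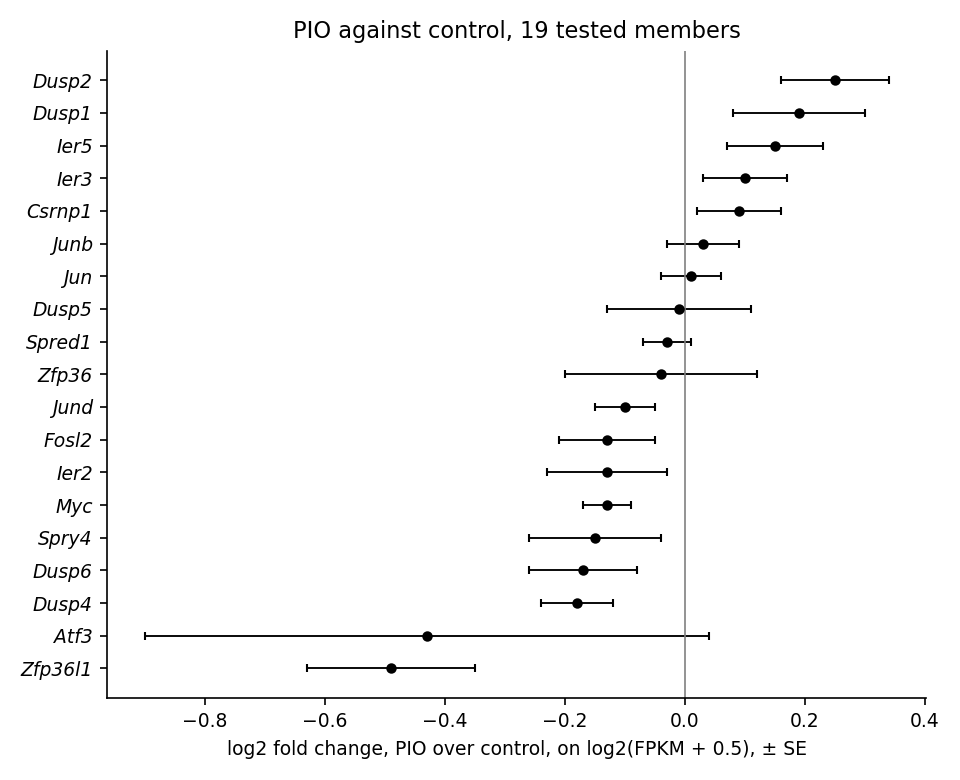
Log2 fold change of PIO over control on the log2(FPKM + 0.5) scale for the 19 tested members, with SE bars from limma. Zfp36l1 is lowest at -0.49 and Dusp2 highest at 0.25, the bar of Atf3 is the widest, and none passed after adjustment.

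Control replicate 3 stood apart in several members, and was singled out with earlier results of these data known, so it is described without a test. It was above every other library in 11 of the 19 tested members (57.9%), against 22.0% of all genes tested, and below every other library in 3 (15.8%), against 24.2%. The 11 were Atf3, Dusp6, Fosl2, Ier2, Jun, Jund, Myc, Spred1, Spry4, Zfp36 and Zfp36l1, and the 3 were Csrnp1, Ier3 and Ier5. Control replicate 1 was above all others in 0 members (10.3% of all genes tested), control replicate 2 in 1 (17.4%), PIO replicate 1 in 1 (13.4%), PIO replicate 2 in 4 (17.1%) and PIO replicate 3 in 2 (19.8%). Members below all others numbered 2 in control replicate 1 (14.7% of all genes tested), 3 in control replicate 2 (17.1%), 1 in PIO replicate 1 (10.2%) and 3 in PIO replicate 2 (13.8%). PIO replicate 3 was below every other library in 7 members (36.8%, against 20.0% of all genes tested), namely Dusp4, Dusp5, Dusp6, Myc, Spred1, Zfp36 and Zfp36l1.

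Most of these differences were small. Control replicate 3 exceeded the highest other library by at least 25% in 2 members, Atf3 and Zfp36l1 (10.5%, against 1.35% of all genes tested). The lowest other library exceeded it by at least 25% in 0 members (0.807% of all genes tested). The ratio to the highest other library was 1.26 for Zfp36l1, 1.22 for Ier2 and Dusp6 and 1.00 for Jun and Myc. Just under the limit of 25% therefore lay Ier2 and Dusp6, and just over it Zfp36l1. Under quantile normalization Atf3 alone remained above that limit.

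Atf3, a stress-inducible ATF factor that acts downstream of Atf4, showed by far the widest gap of the 19. It stood at 1.33, 1.65 and 7.33 FPKM in control and 1.92, 1.62 and 1.95 FPKM with PIO, that is 38, 44 and 205 reads and 51, 44 and 52 reads. Control replicate 3 was thus 3.76-fold above the highest other library, and the remaining 5 libraries lay between 1.33 and 1.95 FPKM. The log2 fold change with PIO was -0.43 (SE 0.47, limma adjusted p = 0.719) and turned to 0.23 without control replicate 3 (limma adjusted p = 0.508).

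**Figure D5:**
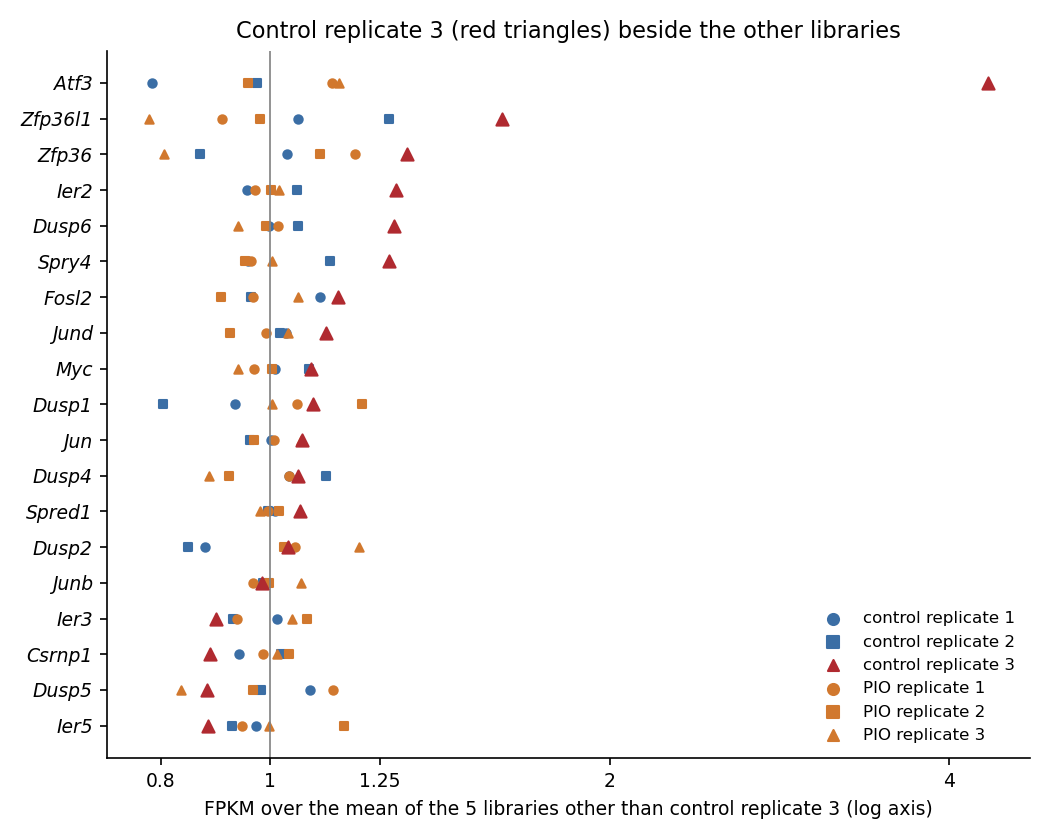
FPKM of the 19 tested members in each library divided by the mean of the 5 libraries other than control replicate 3 (log axis). The red triangle of control replicate 3 lies farthest to the right for Atf3, followed by Zfp36l1, and lies within the other libraries for Dusp1, Dusp2, Dusp4, Dusp5 and Junb.

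Genes of the integrated stress response moved with Atf3 in that library, and their part in its level was not tested. In control replicates 1 to 3 and PIO replicates 1 to 3, Atf4, the master factor of that response, stood at 279, 277, 617, 243, 240 and 255 FPKM. Ddit3, which encodes CHOP, a partner of Atf4, stood at 5.02, 4.88, 22.2, 5.53, 5.56 and 6.08 FPKM. The glutathione-degrading enzyme gene Chac1 stood at 6.89, 6.37, 60, 5.85, 5.65 and 6.74 FPKM. In all 3 genes control replicate 3 was the highest library by more than 2-fold. Trib3 was 4.36-fold and the asparagine synthetase gene Asns 1.32-fold above the highest other library there. Of 17 tested genes of this list, all 17 were highest in control replicate 3 and 11 by at least 25%. Over all genes tested the shares were 22.0% and 1.35%. The list was set beside Atf3 and that library with earlier results of these data known, so the counts are description alone. None of the 17 passed in the comparison of PIO with control, in which all were lower with a median of -0.25 on the log2 scale. Without control replicate 3, 4 of the 17 were above 0 and 13 below, with a median of -0.03.

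Other immediate early genes, chosen from a fixed list of 44, also gave no call. Of these 44, 26 were tested, 7 were above 0 and 19 below, none passed, and the median log2 fold change was -0.08 (10 above, 16 below and -0.03 without control replicate 3). At an unadjusted limma p under 0.05 there were 3 of the 26, all lower, against 6.15% lower over all genes tested. Ptgs2, the inducible cyclooxygenase gene, stood at 42.8, 45.9 and 51.0 FPKM in control and 41.0, 32.1 and 31.5 FPKM with PIO. Its log2 fold change was -0.42 (limma adjusted p = 0.29). Klf6, a zinc finger factor gene, stood at 19.5, 19.6 and 25.5 FPKM in control and 17.6, 16.7 and 15.4 FPKM with PIO. Its log2 fold change was -0.36 (limma adjusted p = 0.304). The groups did not overlap in either gene, and Klf6 was 1.3-fold above the highest other library in control replicate 3.

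The partners that bind DNA with Fos and Jun, or compete with them, likewise gave none. Of 30 listed bZIP factors, 22 were tested, 5 were above 0 and 17 below, none passed, and the median was -0.09 (6 above, 16 below and -0.03 without control replicate 3). An unadjusted limma p under 0.05 was found in 5 of the 22, all lower, against 6.15% lower over all genes tested. Without control replicate 3 it was found in 3, in either direction. Atf2, which pairs with Jun, had the smallest p of that list, at 25.6, 28.5 and 27.5 FPKM in control and 23.0, 21.5 and 22.1 FPKM with PIO (change of -0.29 on the log2 scale, limma adjusted p = 0.212). Jdp2, a repressor that dimerizes with Jun, stood at 0.872, 1.34 and 1.99 FPKM in control and 0.798, 0.675 and 0.879 FPKM with PIO, with the highest value again in control replicate 3.

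Upstream of the members, 21 of 22 listed serum response, ETS and CREB factors were tested. Of these, 5 were above 0 and 16 below, with a median of -0.04 and no call (7 above, 14 below and -0.08 without control replicate 3). An unadjusted limma p under 0.05 was found in 4 of the 21, all lower, against 6.15% lower over all genes tested. Without control replicate 3 it was found in 2, in either direction. Among the 4, Atf1 and Creb1 also belong to the bZIP list. Ets1, a target of ERK, had the smallest p, at 18.9, 18.2 and 18.7 FPKM in control and 15.9, 15.5 and 15.7 FPKM with PIO (change of -0.24 on the log2 scale, limma adjusted p = 0.212). The control and PIO values of Ets1 did not overlap, and control replicate 3 did not stand apart in it. Of the Ras, Raf, MEK and ERK genes 10 of 23 tested were above 0 (median -0.01), and of the JNK and p38 genes 9 of 16 (median 0.03), with no call in either list. Without control replicate 3 these were 8 of 23 (median -0.01) and 9 of 16 (median 0.01). With all libraries, an unadjusted limma p under 0.05 was found in 1 higher and 3 lower genes of the first list. In the JNK and p38 list it was found in 0 higher and 1 lower. Map3k2, a kinase upstream of JNK and ERK5, had the smallest p of the latter, with means of 4.06 and 2.86 FPKM (-0.44, limma adjusted p = 0.304).

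Among 27 further phosphatases and feedback inhibitors, 20 were tested, 6 were above 0 and 14 below, the median was -0.08 and none passed. At an unadjusted limma p under 0.05 there were 2 higher and 1 lower, against 6.36% higher and 6.15% lower over all genes tested. Dok3, an adaptor that dampens immune receptor signalling, stood at 21.9, 20.3 and 22.8 FPKM in control and 24.8, 24.6 and 25.2 FPKM with PIO (change of 0.20 on the log2 scale, limma adjusted p = 0.297). Dusp7, a cytoplasmic ERK phosphatase close to Dusp6, had means of 10.7 FPKM in control and 12.3 FPKM with PIO (0.19, limma adjusted p = 0.371), and Spred2 had means of 24.5 and 21.5 FPKM (-0.18, limma adjusted p = 0.382). Without control replicate 3, 11 of the 20 were above 0 and 9 below, and the median was 0.01. Of 25 tested AU-rich element binding and mRNA decay genes, 9 were above 0 and none passed (median -0.03).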

How the data were processed

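RNA-seq of 6 libraries of RBL-2H3 cells was used, 3 control and 3 given PIO. TRIzol extraction and a kit for stranded mRNA libraries are recorded, per the labels' protocols. The values deposited by the authors are FPKM per gene and library. Cufflinks, HTSeq, DESeq, SAMtools 1.3.1, BWA 0.7.5a, HISAT2 2.2.1.0, FastQC 0.11.5 and Trimmomatic 0.36 are named, per the submitters' processing notes. Their roles, and whether counting used strand, are not given in the sources used here. The same notes name GRCh38, a human build, whereas the gene identifiers are those of the rat, and no coordinates were taken from the data, and promoters came from RefSeq (GRCr8).

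The FPKM values resolved into whole reads and a whole gene length for 15429 of 15429 genes above 0 (largest departure allowed, 0.02 of a read). The reads summed to 99.5% of each library's total.

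Limma 3.58.1 (R 4.3.3) was run on log2(FPKM + 0.5) of genes averaging 0.5 FPKM or more. The model held the group alone and a trend of variance with level, and the two-sided p-values were adjusted by Benjamini and Hochberg over all genes tested, at 0.05. On this scale the fold changes of low genes come out too small. The code was tested on simulated data. Alternatives were other pseudocounts, filters, scalings, variance fits and weights, the replicate number as a block, limma-voom on the recovered reads and each library left out. Members and lists were chosen with earlier results of these data known. Values per library are given for the AP-1 genes, the 10 members with the highest control mean, members at an unadjusted p under 0.05, and members in which control replicate 3 was 25% apart from all others. Outside these criteria, Ier5 is given per library beside the other IER genes, and Egr1 in reads beside Fos and Fosb. Of each other list, up to 4 genes with the smallest p could be named, and Atf4, Ddit3, Trib3, Asns and Chac1 were named beside Atf3 whatever their p. Tables and figures were made with Python 3.11.15, pandas and matplotlib.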

Additional observations from a re-analysis of the deposited data

How the results depend on the processing

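Across the 19 alternatives no member passed, and the smallest limma adjusted p was 0.141. The number of genes called over all genes tested was 4, and it was 1 without a filter, 2 without a variance trend, 7 with a robust variance fit and 7 with limma-voom on the recovered reads. With each library left out it lay between 2, without control replicate 1, and 4. The median log2 fold change of the tested members lay between -0.11 and -0.01 with each library left out, at -0.11 without control replicate 2 and without PIO replicate 1 and -0.01 without control replicate 3. The cause of these shifts was not tested. The count of members in which control replicate 3 was highest was 7 of 13 at a minimum mean of 5 FPKM, where fewer genes were counted, and under TPM scaling the count in which it was lowest was 5 of 25.

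The sign of 14 of the 19 members stayed the same under every alternative in which they were tested. The log2 fold change of Jun was -0.0005 under median-of-ratios scaling and -0.02 under TPM scaling, and that of Zfp36 was 0.06 with sample weights. With each library left out, Jun lay between -0.03 and 0.05, Junb between -0.0063 and 0.06, Dusp5 between -0.08 and 0.07, Zfp36 between -0.16 and 0.09, and Atf3 between -0.82 and 0.23. The fit with the replicate number as a block called 3 genes over all genes tested and 0 members, with a median of -0.04 for the members. Same-numbered libraries shared little of their deviation from the group means (correlations across genes of -0.0682, 0.0277 and 0.0776), so the numbers were not taken to pair the libraries. Depth limits the 13 scarce members, for which 2 to 161 reads over all 6 libraries were recovered.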
